A study of Mus musculus with 8 samples.

Results

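The superoxide dismutase genes Sod1, Sod2 and Sod3 and the copper chaperone gene Ccs were examined in sciatic nerve of SOD1G93A and wild-type mice. Members were all probes that the scanner files name with one of these 4 symbols, whatever their signal, which gave 4 of the 34821 names and 4 of the 55681 probes on the array, 1 probe for each gene and 1 spot each. Nerves came from male mice aged 60 days, with 4 arrays for wild-type mice, described in the series text as non-transgenic controls, and 4 arrays for SOD1G93A mice. The latter carry a mutant human SOD1 transgene and serve as a model of amyotrophic lateral sclerosis. The labels used here name no strain background, promoter or copy number of the transgene, and the series text calls the 4 arrays per genotype biological replicates. On every array the nerve RNA was labelled with Cy3 and a common reference with Cy5. The reference was RNA of neonatal heart, liver and kidney, pooled from wild-type and SOD1G93A mice, so it also held RNA of the mutant genotype. The question was whether the genes of superoxide removal, one of which is the gene mutated in this model, differed between the genotypes at an age that the series title places before symptoms.

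Superoxide dismutases convert superoxide to hydrogen peroxide and oxygen. Sod1 encodes the copper and zinc enzyme of the cytosol, Sod2 the manganese enzyme of the mitochondrial matrix, and Sod3 the secreted copper and zinc enzyme that binds the extracellular matrix. Ccs encodes the chaperone that loads copper into the SOD1 protein and helps form its disulfide bond. Mutations in human SOD1 cause a familial form of amyotrophic lateral sclerosis, in which motor neurons and their axons in peripheral nerve degenerate.

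A value on these arrays is what 1 probe of 60 bases captured, so the probes are shown first. The Sod1 probe, A_55_P2177539, is listed at chr16:90226509-90226568 on the plus strand of mouse build mm9. The Sod2 probe, A_51_P172573, is listed at chr17:13208074-13208133, plus strand. The Sod3 probe, A_55_P2077558, is listed at chr5:52760685-52760744, plus strand. The Ccs probe, A_52_P400224, is listed at chr19:4825375-4825434, minus strand. No mm9 annotation was used here, so the exon or untranslated part that each probe covers was not analysed. The last 30 bases of each probe are given 5′ to 3′, as the files list them, with the hexamer ATTAAA, a known variant of the poly(A) signal, in capitals.
Sod1: ctaccctcaaaccATTAAActgtaatctga
Sod2: gcactatgactggggtgctgtagtctttat
Sod3: ttgctcATTAAAaacatagcaattcacaac
Ccs: tgtagcctgaacaaATTAAAttgttacttt
The hexamer was present in 3 of these 4 stretches and absent from the one for Sod2. Among all 55681 probes, 2.74% held ATTAAA in the last 30 bases as listed, and 4.03% held it on either strand. A match of these letters is a description and does not show a used poly(A) site. The hexamer was not among the planned results and no other hexamer was counted, so these shares are no measure of enrichment. The GC content was 45% for the Sod1 and Sod2 probes, 35% for the Sod3 probe and 38.3% for the Ccs probe, against an array median of 43.3% and a 5th to 95th percentile range of 35% to 55%. The longest run of bases that the Sod2, Sod3 and Ccs probes shared with any other probe of the array was 14. The Sod1 probe shared a run of 37 bases with probe A_55_P2025283, which is described with the Sod1 values. No human sequence was used here, so whether the mouse Sod1 probe also captures the human transgene's transcript was not tested, and the Sod1 value does not check the genotype labels.

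All 4 probes gave clear signals. Each was well above background in both dyes on 8 of 8 arrays, with 0 saturated spots and 0 outlier marks, and the local Cy3 background of these spots lay between 39 and 56 intensity units. Nerve intensity before normalization ranged from 7272 to 22119 for Sod1, from 2539 to 8131 for Sod2, from 4507 to 8988 for Sod3 and from 1521 to 3097 for Ccs. The lowest nerve intensity was that of SOD1G93A replicate 1 and the highest that of wild-type replicate 1 for every one of the 4 probes. In the nerve channel the highest value was 3.04 times the lowest for Sod1, 3.20 times for Sod2, 1.99 times for Sod3 and 2.04 times for Ccs. In the reference channel, which received the same pool on every array, these factors were at most 1.29. Probes differ in how well they bind, so intensities were not compared between genes.

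**Figure D1:**
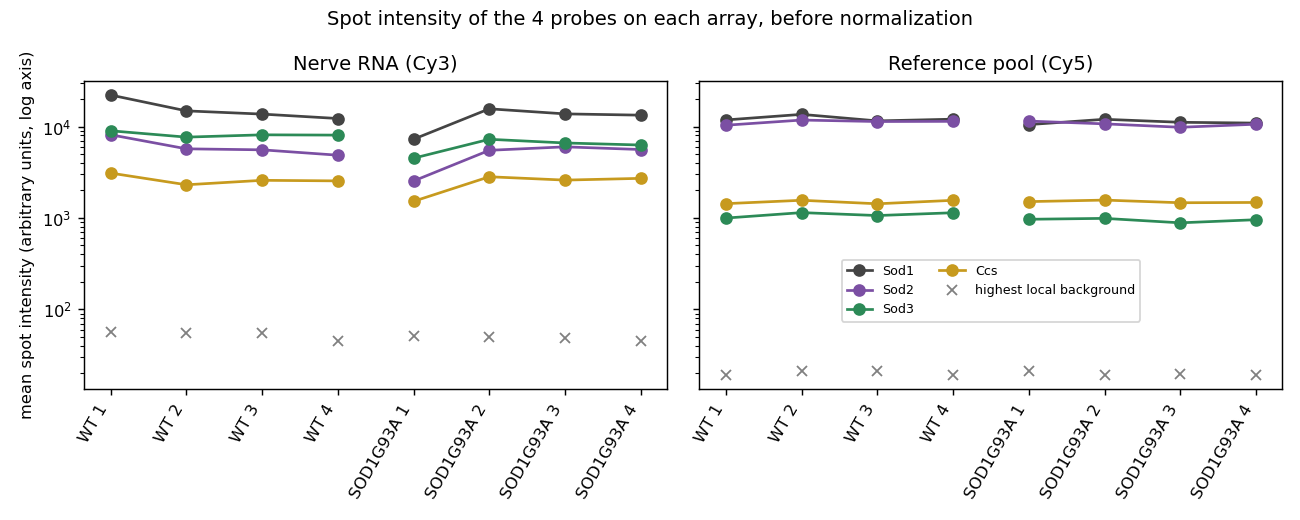
Mean spot intensity in arbitrary units (log axis) of the 4 probes on each array before normalization, for nerve RNA (Cy3, left) and the reference pool (Cy5, right), with the highest local background of the 4 spots as crosses. In nerve, SOD1G93A replicate 1 is the lowest array for all 4 probes and wild-type replicate 1 the highest, while the reference intensities vary by at most 1.29 times between arrays.

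This spread was not particular to these probes. The median Cy3 intensity of kept spots was 736 on wild-type replicate 1, 378 on SOD1G93A replicate 1 and 536 to 613 on the other 6 arrays, and these 2 arrays lay at opposite ends of the first principal component, which held 36.3% of the variance. The share of the 59305 non-control spots that stood well above background in Cy3 was 35.5% to 41.7%, and correlations between arrays over probes ranged from 0.87 to 0.98. All 12 Schwann cell markers were well above background. All arrays lay on 1 slide, each genotype in its own row, so row and genotype cannot be told apart. All values below are log2 ratios of nerve over reference after background correction and loess normalization within each array, and a call means an adjusted p under 0.05 (Benjamini-Hochberg) over the 19836 probes kept.

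No member was called between the genotypes. All 4 were lower on average in SOD1G93A nerves, by 0.07 to 0.22 on the log2 scale, with groups that overlapped for each of the 4 probes. Over all kept probes, 0.171% were called (34 of 19836, 17 in each direction), 10.9% had an unadjusted p under 0.05 and 7.52% had groups without overlap. The 4 members gave 0 by each of these measures, with limma as the test. A lower mean in SOD1G93A nerves was seen in 54.6% of all probes, whose median difference was -0.02. The count of 34 probes moved with single arrays. It was 15, 7, 6 and 24 without wild-type replicates 1, 2, 3 and 4, and 197, 12, 7 and 6 without SOD1G93A replicates 1, 2, 3 and 4. In bulk nerve RNA, a lower share of cells of one type and less RNA per cell cannot be told apart.

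**Figure D2:**
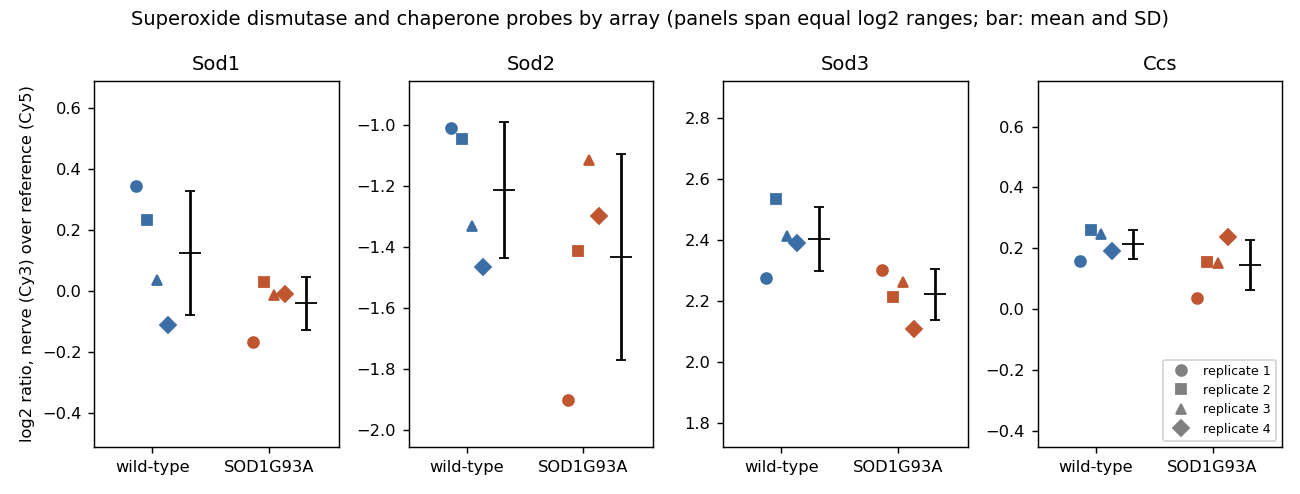
Log2 ratio of nerve (Cy3) over reference (Cy5) of the 4 probes on each array, with wild-type in blue, SOD1G93A in orange, 1 symbol per replicate number, and bars for the mean and SD of 4 arrays. Every panel spans the same log2 range. The groups overlap in each panel, and the Sod2 value of SOD1G93A replicate 1, -1.90, lies below the other 7 arrays.

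Sod1, the cytosolic enzyme, was measured at 0.35, 0.23, 0.04 and -0.11 in wild-type replicates 1 to 4. The SOD1G93A replicates 1 to 4 gave -0.17, 0.03, -0.01 and -0.01. Wild-type replicates 1 and 2 stood above all other arrays, wild-type replicate 3 lay just above the SOD1G93A arrays, and wild-type replicate 4 lay within their range. Mean and SD over 4 arrays were 0.13 ± 0.20 for wild-type nerves against -0.04 ± 0.09 for the mutant genotype. Their difference, -0.17 ± 0.11 (SE) with a 95% interval from -0.41 to 0.08, was not called (limma adjusted p = 0.61). On the linear scale this interval runs from a level 25% lower to one 5.81% higher. The 2-sided exact permutation test over the 70 ways to split the 8 arrays gave p = 0.2, where the smallest p that this design allows is 0.0286. The difference was -0.09 without wild-type replicate 1 and -0.25 without wild-type replicate 4, and neither was called.

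The probe that shares 37 bases with the Sod1 probe carries no gene symbol and is named NAP097170-001 in the files. It is listed at chr6:67156068-67156127 on mm9, far from the Sod1 position on chromosome 16. Bases 1 to 37 of the Sod1 probe match its bases 17 to 53. It was noticed after the data were seen, is not among the members, and is no independent measurement of Sod1, because a transcript captured by the shared run can bind either probe. It gave 0.40, 0.21, 0.05 and -0.13 in wild-type and -0.25, -0.08, 0.02 and -0.08 in SOD1G93A nerves, with nerve intensities from 7902 to 22464. These values followed the order of the Sod1 probe closely in the wild-type arrays, and SOD1G93A replicate 1 was again the lowest array. Its difference was -0.23 ± 0.12 (SE), with a 95% interval from -0.50 to 0.04, and was not called either (limma adjusted p = 0.53). Which transcript each of the 2 probes reads was not tested.

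Sod2, the mitochondrial enzyme, was the only member with more signal in the reference than in nerve on every array. It was measured at -1.01, -1.05, -1.33 and -1.47 in wild-type and at -1.90, -1.42, -1.12 and -1.30 in SOD1G93A replicates 1 to 4. SOD1G93A replicate 1 was the lowest of all arrays, while the other 3 SOD1G93A arrays lay inside the wild-type range. The means were -1.21 ± 0.22 (SD, n = 4) and -1.43 ± 0.34 (SD, n = 4), so that the reference signal exceeded that of nerve 2.32-fold and 2.70-fold. The difference of -0.22 ± 0.17 (SE) had the widest interval of the members, from -0.61 to 0.17, and was not called (limma adjusted p = 0.68, exact permutation p = 0.343). It corresponds to a level between 34.5% lower and 12.6% higher. Without SOD1G93A replicate 1 the difference was -0.06, and with the 6 arrays numbered 2 to 4 it was 0.0050. The standard error of Sod2 exceeded that of 84.9% of kept probes, against 46.5% for Sod1, 14.5% for Sod3 and 4.25% for Ccs.

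Sod3, the secreted enzyme, was the member with the highest nerve over reference ratio. It was measured at 2.28, 2.53, 2.41 and 2.39 in wild-type and at 2.30, 2.21, 2.26 and 2.11 in SOD1G93A replicates 1 to 4. The groups overlapped only because wild-type replicate 1 lay below SOD1G93A replicate 1, and the other 3 wild-type arrays lay above every SOD1G93A array. The means were 2.40 ± 0.11 (SD, n = 4) and 2.22 ± 0.08 (SD, n = 4), which is 5.29-fold and 4.66-fold above the reference. The difference was -0.18 ± 0.085 (SE), with a 95% interval from -0.37 to 0.0096. It had the smallest p of the members but was not called (limma p = 0.0602, adjusted p = 0.48), and the exact permutation p was 0.0571. On the linear scale this is a level between 22.8% lower and 0.665% higher. The difference was negative under all 20 alternative settings, from -0.27 to -0.14, and adjusted p (limma) ranged from 0.144 to 0.689. Its sign could not change under the spot flag, filter, replicate block and probe settings, which leave this difference at -0.18. The series table repeated Agilent's processed signals, with -0.14 in both.

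Ccs, the copper chaperone of SOD1, varied least between arrays. It was measured at 0.16, 0.26, 0.25 and 0.19 in wild-type and at 0.04, 0.15, 0.15 and 0.24 in SOD1G93A replicates 1 to 4. The lowest value was again that of SOD1G93A replicate 1, and SOD1G93A replicate 4 lay within the wild-type range. The means were 0.21 ± 0.05 (SD, n = 4) and 0.15 ± 0.08 (SD, n = 4). The difference of -0.07 ± 0.08 (SE), with a 95% interval from -0.24 to 0.10, was not called (limma adjusted p = 0.76, exact permutation p = 0.143). This bounds a change of the level at 15.3% lower and 7.31% higher. Without SOD1G93A replicate 1 the difference was -0.03. In the nerve channel alone, without the reference and the normalization within arrays that uses it, the Ccs difference was 0.04, and the cause of this change of sign was not tested.

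**Figure D3:**
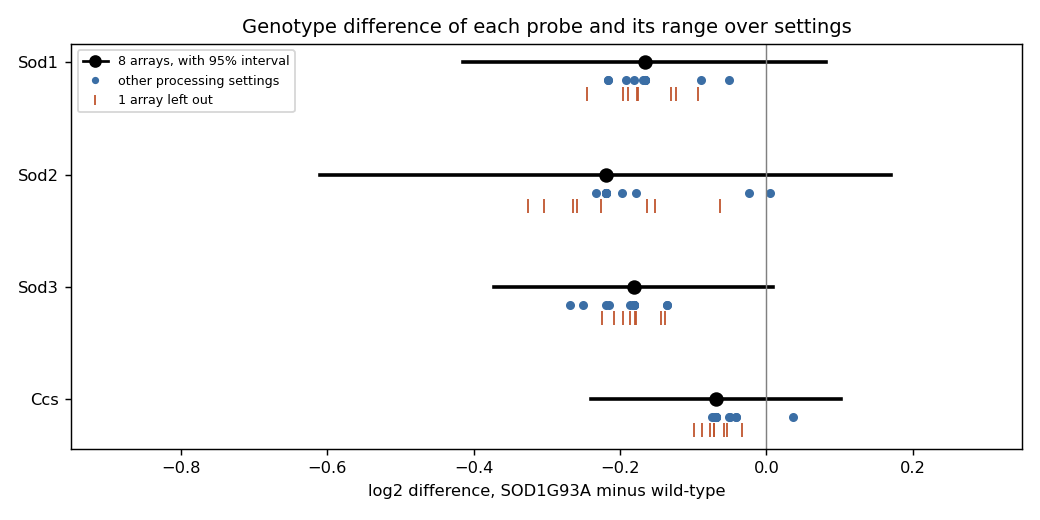
Difference of each member between genotypes on the log2 scale (SOD1G93A minus wild-type). Black points and lines give the estimate over 8 arrays with its 95% interval, blue points other processing settings and orange ticks the values with 1 array left out. Every black interval includes 0, and the settings cross 0 for Sod2 (0.0050) and Ccs (0.04).

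Relative to other probes, the nerve over reference ratio of Sod3 in wild-type nerves was higher than that of 97.4% of kept probes, that of Sod2 higher than 5.77%, and those of Sod1 and Ccs near the middle, at 51.5% and 56.9%. The order of the 4 ratios was Sod3, Ccs, Sod1 and Sod2 in both genotypes. Ccs and Sod1 were neighbours that overlapped in wild-type nerves, from 0.16 to 0.26 for Ccs and from -0.11 to 0.35 for Sod1, while Sod3 and Sod2 stood clear of both. This order ranks enrichment over the neonatal pool and not levels between genes. Dyes were not swapped, so dye and tissue cannot be told apart in it. With Agilent's own processed signals the ratio of Ccs was 0.011 in wild-type and -0.03 in SOD1G93A nerves, and that of Sod1 was 0.34 and 0.12, so their order turned there, while Sod3 remained at 2.24 and 2.10.

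The marker lists were set beside the members array by array. All 11 lists were correlated with each member, and the planned results named no pairs. The pairs described here include the closest matches in these same 8 arrays, such as Sod1 with smooth muscle and pericyte (r = 0.88). Sod2 with perineurium (r = 0.85) is another. Such matches are high by selection. The smooth muscle and pericyte score, the mean log2 ratio of 13 kept of 14 markers centred over arrays, was 0.93 and 0.69 on wild-type replicates 1 and 2, which were also the highest arrays for Sod1. It ranged from -0.27 to 0.93 in wild-type and from -0.57 to -0.22 in SOD1G93A nerves, with 12 of 13 markers lower and 0 called (6 with an unadjusted p under 0.05). The skeletal muscle score, from 11 kept of 15 markers, was 2.52 and 1.70 on the same 2 wild-type arrays and between -0.89 and -0.52 on the other 6. Of its markers 10 were lower and 0 were called, while Myh1, Myh2, Mylpf and Neb were not kept. The adipocyte score was also highest on these 2 arrays, at 1.06 and 0.91, as was the fibroblast score, at 0.11 and 0.24, the latter with SOD1G93A replicate 2 at 0.11. The endothelial score, at 0.44 and 0.29, and the neutrophil score, at 0.22 and 0.21, were highest there too. The part of muscle and other cell types in the Sod1 values was not tested.

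**Figure D4:**
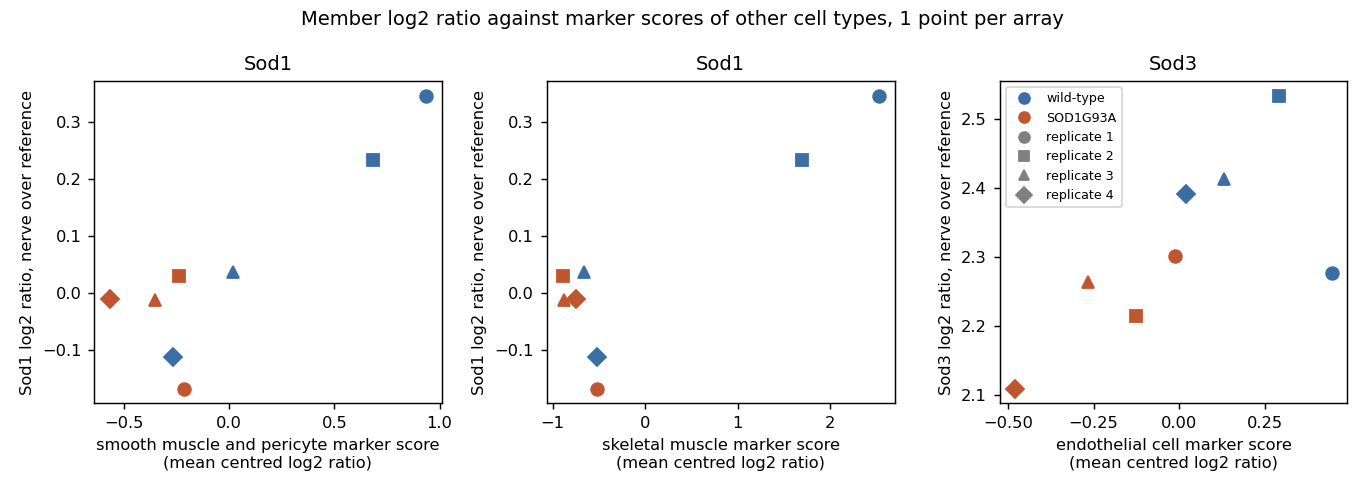
Log2 nerve over reference ratio of Sod1 against the smooth muscle and pericyte score (left) and the skeletal muscle score (middle), and of Sod3 against the endothelial cell score (right), 1 point per array, with wild-type in blue and SOD1G93A in orange. Wild-type replicates 1 and 2 stand apart in the left and middle panels, and the endothelial score separates the genotypes in the right panel. The pairs drawn were taken from 11 marker lists compared with each member.

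Beside Sod3, the endothelial score ranged from 0.018 to 0.44 in wild-type and from -0.48 to -0.014 in SOD1G93A nerves. Of its 13 kept markers of 14, 12 were lower and 0 were called (8 with an unadjusted p under 0.05), and Erg was not kept. Wild-type replicate 1 was the highest array of the endothelial score but the lowest wild-type array for Sod3. The smooth muscle and pericyte score was likewise highest on that array, at 0.93, and lowest on SOD1G93A replicate 4, at -0.57. The macrophage score, from 14 kept of 15 markers, ranged from -0.46 to -0.08 in wild-type and from -0.44 to 0.64 in SOD1G93A nerves. Of these markers 13 were higher and 1 was called, Trem2, a receptor of tissue macrophages (difference 1.26, limma adjusted p = 0.0495). The call of Trem2 was kept under 6 of 20 alternatives. Cd163 was not kept. SOD1G93A replicate 4 had the highest macrophage score, the lowest endothelial score and the lowest Sod3 value. The part of these cell types in the Sod3 values was not tested.

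For Sod2, whose lowest arrays were SOD1G93A replicate 1 and wild-type replicate 4, the perineurial score from 8 of 8 markers was also lowest there, at -0.37 and -0.31, against 0.020 to 0.23 on the other 6 arrays. The fibroblast score, from 12 of 12 markers, was lowest on SOD1G93A replicate 1, at -0.36, the lowest array for both Sod2 and Ccs, and highest on wild-type replicate 2, at 0.24, the highest array for Ccs. The Schwann cell score was highest on SOD1G93A replicate 1, at 0.47, and lowest on wild-type replicate 1, at -0.31, which are the lowest and the highest array for Sod2. The part of these cell types in the Sod2 and Ccs values was not tested.

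For the remaining marker lists 0 markers were called by limma. Of the Schwann cell markers 11 of 12 were higher, and the 1 with an unadjusted p under 0.05, Egr2, a regulator of myelination, was the lower one (-0.46), with scores from -0.31 to 0.17 in wild-type and from -0.12 to 0.47 in SOD1G93A nerves. Of fibroblast markers 9 of 12 were lower (3 under 0.05), with scores from 0.013 to 0.24 and from -0.36 to 0.11. Of adipocyte markers 10 of 10 kept were lower (3 under 0.05), with scores from -0.37 to 1.06 and from -1.45 to 0.018. Lower means were found for 4 of 8 perineurial, 6 of 8 red blood cell, 5 of 7 neuronal and 3 of 3 neutrophil markers, with 0, 0, 0 and 1 under 0.05.

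The genes around the members were read from 6 lists. The list of peroxide removal held enzymes that remove the hydrogen peroxide made by the dismutases, with related genes such as Msra, Msrb1 and Park7. Of its 30 genes 28 were kept, 19 lower and 9 higher, where 54.6% of all kept probes were lower. By limma 0 were called and 5 had an unadjusted p under 0.05. The median difference was -0.06 against -0.02 over all probes. Txnrd3, a thioredoxin and glutathione reductase, differed by -0.36 ± 0.08 (SE, adjusted p = 0.145). Msra, which repairs oxidised methionine, differed by -0.39 ± 0.10 and Cat, the peroxisomal catalase, by -0.34 ± 0.10, with -0.35 on its other probe. In the nerve channel alone the Cat difference was -0.10, and with the arrays numbered 2 to 4 it was -0.20. Prdx2, a cytosolic peroxiredoxin, differed by 0.30 ± 0.11, in the opposite direction. Srxn1, which reduces overoxidised peroxiredoxins, differed by 0.21 ± 0.09 and was the fifth gene under 0.05. The kept glutathione peroxidases went both ways, with -0.27 ± 0.13 for Gpx1, 0.06 ± 0.22 for Gpx2, -0.81 ± 0.47 for Gpx3, -0.0041 ± 0.09 for Gpx4, 0.17 ± 0.09 for Gpx7 and -0.15 ± 0.15 for Gpx8. Prdx3, the peroxiredoxin of mitochondria, gave -0.34 ± 0.16.

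Copper handling, which feeds Ccs and Sod1, showed no call. Of 30 genes 24 were kept, 10 higher and 14 lower, with a median of -0.02, and 1 had an unadjusted p under 0.05 by limma. Slc31a1, the copper importer of the plasma membrane, differed by 0.21 ± 0.11 (SE). Cox19 and Cox11, assembly factors of cytochrome c oxidase, differed by 0.20 ± 0.08 and -0.21 ± 0.10, and Aoc3, a copper amine oxidase of vascular cells and fat, by -0.86 ± 0.45. Aoc3 was at -0.46 without wild-type replicate 1, and Cox11 at -0.13 without SOD1G93A replicate 1. Atox1, which hands copper to the secretory pathway, gave -0.02, its partner pump Atp7a 0.14, and the metallothioneins Mt1, Mt2 and Mt3 gave -0.02, -0.08 and 0.06. Cox17 and Sco1 were not kept.

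For superoxide sources 11 of 21 genes were kept, where 15341 of 34821 gene names were kept over the whole array. Of the 11 genes 5 were higher and 6 lower, with a median of -0.05. By limma 0 were called and 1 had an unadjusted p under 0.05. Cyba, the membrane subunit of the phagocyte NADPH oxidase, gave 0.0022, and the catalytic subunits Cybb and Nox4 were not kept. Nos3, the endothelial nitric oxide synthase, differed by -0.63 ± 0.31 (SE) with -0.58 on its other probe, Xdh, xanthine dehydrogenase, by -0.39 ± 0.34, and Rac1 by -0.11 ± 0.10 with 0.08 on its other probe. With 1 array left out, Nos3 ranged from -0.85 to -0.34 and Xdh from -0.65 to -0.12, both nearest to 0 without wild-type replicate 1, and Rac1 from -0.17 to -0.05, nearest to 0 without wild-type replicate 3. The list's median, too, was 0.07 without wild-type replicate 1, 0.02 without SOD1G93A replicate 1 and -0.15 without wild-type replicate 2.

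Regulators of Sod2 and Sod3 transcription had a median of 0.0011, with 9 of 17 kept genes higher, 8 lower and 0 called by limma (2 with an unadjusted p under 0.05, from a list of 22). Egr1, an immediate early transcription factor, had the largest difference in the 6 lists at 2.21 ± 0.63 (SE), but with an adjusted p of 0.251. Stat3, the transcription factor of cytokine signalling, differed by 0.36 ± 0.10 with 0.27 on its other probe. Nfkbia, the inhibitor of NF-kB, differed by -0.23 ± 0.15 (-0.15 without wild-type replicate 2), and Trp53 by -0.17 ± 0.09, the latter above background on 3 of the 4 wild-type arrays but 2 of the 4 SOD1G93A arrays. Sirt3, a deacetylase that acts on the Sod2 protein, was also on this list, and its value of 0.0011 is the list median. The coactivator Ppargc1a gave 0.25.

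Genes of the mitochondrial matrix and of protein import, through which Sod2 reaches its place, were lower in 14 of 18 cases and all 18 were kept. The median was -0.09, 0 were called by limma and 2 had an unadjusted p under 0.05. Slc25a37, the mitochondrial iron importer, differed by -0.30 ± 0.10 (SE), Timm50, a receptor of the inner membrane translocase, by -0.17 ± 0.10 with -0.21 on its other probe, and the protease subunit Clpp by -0.12 ± 0.08. Timm50 was at -0.10 without wild-type replicate 1, and Clpp at -0.07 without SOD1G93A replicate 1.

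Partners of SOD1 and genes of protein quality control held the single call among the 6 lists. Of 18 genes 17 were kept, 7 higher and 10 lower, with a median of -0.02, 1 called by limma and 6 with an unadjusted p under 0.05. Tardbp, which encodes TDP-43, rose by 0.62 ± 0.09 (SE, adjusted p = 0.0495), but its other kept probe gave -0.15, so the direction of the gene is not settled. The call was kept under 6 of 20 alternatives. Dnajb1, a cochaperone of HSP70, differed by 1.1 ± 0.20 (adjusted p = 0.0917), and Hspa8, the constitutive HSP70, by 0.53 ± 0.10 with 0.20 and 0.48 on its other probes.

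**Figure D5:**
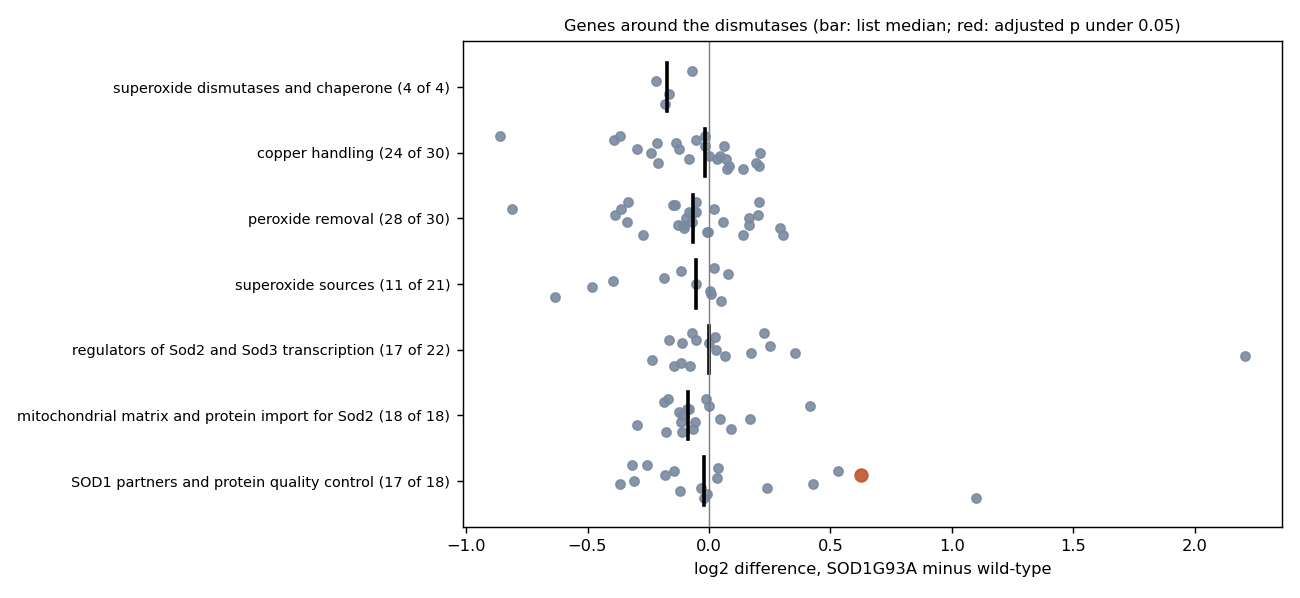
Log2 difference (SOD1G93A minus wild-type) of each kept gene of the member group and the 6 lists around it, 1 point per gene at its brightest kept probe, with a bar at the list median and kept against listed genes in brackets. The medians of the 6 lists lie between -0.09 and 0.0011, and the single red point is Tardbp.

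The genes whose pattern over the 8 arrays was most like each member were taken from 12439 gene names, 1 probe each, by Pearson correlation of the log2 ratios. The highest of so many correlations over 8 arrays are high by selection, all arrays share the reference and the slide, and no test was made. For Sod1 they were Tgm2 (r = 0.99), Aldh4a1, Epb4.1, Gpsm3 and Mgp (0.98 each). Tgm2, a transglutaminase, was also among the closest 5 after the genotype means were subtracted, at 0.99, with Icosl, Dap3, Map2k3 and Gtf2h4. For Sod2 they were Mrps35 (r = 0.98), a protein of the mitochondrial ribosome, and Igfbp7, Cyp27a1, Glis2 and Lgals9 (0.97 each). Of these, Glis2, a zinc finger transcription factor, was also closest within genotypes, followed by Mamdc2, Slc4a7, Mib2 and Cpsf3l.

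For Sod3 they were Bmf (r = 0.98), a pro-apoptotic BH3-only protein, Abtb1 (0.97), Gnal (0.96), Sbsn (0.95) and Mir22hg (0.95). Within genotypes the names were Ppil1, Adam11, 9430060I03Rik, Bmf and Rdh12. The likeness of Ppil1 was 0.99 there. Without subtracting the genotype means it was -0.17 with Agilent's processed signals and -0.67 in the nerve channel alone. Both the processing and the subtraction differ between these values and 0.99, and their parts were not tested. Bmf, at 0.98 without the subtraction, was at 0.93 and 0.97 under these 2 kinds of processing. For Ccs they were Thoc3 (r = 0.98), a subunit of an mRNA export complex, Dpm2 (0.97), Slc35a2, Usp39 and Yif1a (0.96 each). Thoc3 and Usp39 were again among the closest within genotypes, with Commd6, Tmed10 and Gm16381. In the nerve channel alone, without the subtraction, Usp39 was at 0.35 to Ccs, Yif1a at 0.53, Slc35a2 at 0.58 and Thoc3 at 0.69. Dpm2 was at 0.98 there. Other names from within genotypes were also read with Agilent's processed signals, without the subtraction. Tmed10 was at 0.20 to Ccs, Gtf2h4 at 0.36 to Sod1, and Mib2 and Cpsf3l at 0.49 and 0.47 to Sod2. As for Ppil1, the parts of processing and subtraction in these lower values were not tested.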

How the data were processed

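Each deposited scanner file gives, per the file headers of Agilent Feature Extraction 11.5.1.1, linear intensity of Cy3 and Cy5 for every spot, local background and flags. According to the submitters' processing notes the version was 11.0.1.1, and limma is listed with no role. In the deposited series table the values are log10 ratios, Cy5 over Cy3, the same as the scanner files' own on every spot (largest difference 0). The sign was turned here and the values put on the log2 scale, which the authors did not deposit. Flags and names among the other deposited columns have no scale.

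Mean spot intensity and median local background were corrected by normexp (offset 50) and normalized by loess within arrays (span 0.3, control spots without weight), with no scaling between arrays. Probes for which more than 50% of spots were marked above background by the scanner software in Cy3, on 4 or more of the 8 arrays, were kept, 19836 in all; this rule on spots follows earlier processing of these data and was set after the counts under other rules were seen. Genotypes were compared in R 4.3.3 by limma 3.58.1 (lmFit, eBayes; with data.table, version 1.17.8), 2-sided, adjusted over all kept probes. The procedure was tested on simulated data. Probe positions are those of the files (mm9), and 11724 of 15341 kept gene names matched the reference table (GRCm38, used for names only) by accession.

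The genes named are all member probes, each list's called genes with its 4 of smallest p, and the 5 names most like each member, with other list genes added for their role after their values were seen. Some genes that this rule names are not reported here. From the likeness search, probe identifiers, coordinates, clusters and accession-type names were dropped after values were seen. The members and lists were chosen with earlier results of these data known. Array numbers were not used to pair the samples, and the sample titles do not say whether same-numbered arrays belong together. Deviations of same-numbered arrays correlated at -0.17, 0.03, -0.12 and 0.09, which cannot settle whether the design was paired. The 20 alternatives covered the background, scaling, channel, filter, spot flags, replicate block, probe rule, array weights, the 6 arrays numbered 2 to 4 and each array left out. The number of arrays limits the precision.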

Additional observations from a re-analysis of the deposited data

Results flagged for a closer look

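A check for an array far from the other 3 of its group covered the 4 members and genes of the 6 lists. From each list it took the called genes and the 4 of smallest p. List genes added for their role were not part of it. Of 56 groups of 4 arrays, 2 held such an array. Chance marks about 1 in 20 groups. Slc25a37, the mitochondrial iron importer, was at -2.60 on wild-type replicate 1 against -2.98 to -2.92 on the other wild-type arrays. Cox11, an assembly factor of cytochrome c oxidase, was at -1.06 on SOD1G93A replicate 1 against -0.75 to -0.71 on the other SOD1G93A arrays. Neither gene was called, and none of the 4 members held such an array.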

How the results depend on the processing

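No member was called under any of the 20 alternatives, and 78 of 80 differences kept their sign. The exceptions were Ccs in the Cy3 channel alone (0.037) and Sod2 with arrays 2 to 4 (0.0050). The spot flag, filter, replicate block and probe settings leave each member's difference as it was, so its sign could not change there. The series table repeats Agilent's processed signals. The 80 differences are therefore not separate checks. Adjusted p (limma) ranged over alternatives from 0.406 to 0.855 for Sod1, 0.56 to 0.99 for Sod2, 0.144 to 0.689 for Sod3 and 0.705 to 0.884 for Ccs. The count of called probes was 14 with the series table or Agilent's processed signals, 466 with array weights, 260 with arrays 2 to 4 and 6 to 197 with 1 array left out. With replicate number as a block it was 2, and the block called no member. In the list of SOD1 partners the called count was 0 with Agilent processed signals, the series table, offset 20, scaling between arrays, no filter, a filter on all 8 arrays or the replicate block, 3 with array weights or arrays 2 to 4, and 0 to 3 with 1 array left out. It was 1 for peroxide removal with array weights, 1 for superoxide sources with array weights or arrays 2 to 4, and 1 for mitochondrial import with arrays 2 to 4. The median of the regulators was 0.057 with Agilent processed signals or the series table, 0.024 in Cy3 alone and -0.043 to 0.025 with 1 array left out. The median of superoxide sources was 0.074 with array weights, 0.087 with arrays 2 to 4 and -0.15 to 0.07 with 1 array left out, that of peroxide removal -0.015 with arrays 2 to 4, and that of SOD1 partners -0.075 in Cy3 alone and 0.012 with arrays 2 to 4. With Agilent's processed signals or the series table, the nerve over reference ratio was 0.34 and 0.12 for Sod1, 2.24 and 2.10 for Sod3 and 0.011 and -0.030 for Ccs in wild-type and SOD1G93A nerves. The causes were not tested.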
